A study of Mus musculus with 32 samples.

Results

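The 10 genes described here are 7 laminin chains and 3 integrin subunits of the peripheral nerve: the alpha chains Lama2, Lama4 and Lama5, the beta chains Lamb1 and Lamb2, the gamma chains Lamc1 and Lamc3, and the integrins Itga6, Itgb1 and Itgb4. They were chosen by symbol, from the 45706 genes of an expression table of mouse sciatic nerve. Each was matched through its Ensembl identifier, and all 10 passed the filter on low counts that left 15403 genes. The study has 32 mRNA libraries from mice aged 6 months in 4 genotypes: 7 wild type (WT), 9 Sipa1l2-/-, 8 C3-PMP22 and 8 that carry both changes (C3-PMP22 Sipa1l2-/-, here the double mutant). C3-PMP22 mice carry extra copies of the human PMP22 gene as a transgene and are used as a model of the demyelinating neuropathy CMT1A. Sipa1l2 is the gene whose loss the study tests as a modifier of that disease. The 3 contrasts the study names are each mutant genotype against WT.

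Libraries held 11030976 to 16990990 counts, with a median of 13260286. The headers of the table carry animal numbers, which begin with G in 13 libraries and have no letter in the other 19. All 5 double mutants without the letter were labelled female and all 3 with it male, so within that genotype sex and number series cannot be told apart. In 30 libraries the sex-linked transcripts fitted the label. The libraries labelled C3-PMP22 7 and 8, both labelled female, had Xist at 0.109 and 0.366 CPM (counts scaled to the library total) and the Y-linked Ddx3y at 147 and 146 CPM. Sipa1l2 itself was measured at 82.9 ± 20.3 CPM (SD, n = 7) for WT, 88.9 ± 28.6 (n = 9) for Sipa1l2-/-, 90.1 ± 25.4 (n = 8) for C3-PMP22 and 86.0 ± 40.7 (n = 8) for the double mutants. It was therefore no lower in libraries labelled as lacking it, and this transcript does not check those labels. Mouse Pmp22 ranged from 831 to 5154 CPM. The 7 markers of myelinating Schwann cells, among them Mbp, Mag and Cnp, summed to between 3598 and 21159 CPM in every library, so the defining transcripts of myelinated nerve were present throughout. Markers of skeletal muscle varied most among the cell types examined: the mean of 8 muscle genes, as log2 CPM centred on all libraries, ran from -8.50 to 4.84.

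Laminins are secreted trimers of 1 alpha, 1 beta and 1 gamma chain that polymerise into the basal lamina which each Schwann cell lays around its axon. Schwann cells read this sheet through integrins, chiefly Itga6 paired with Itgb1 during radial sorting of axons and with Itgb4 in mature myelinating cells, and through dystroglycan. Loss of Lama2 causes muscular dystrophy with a dysmyelinating neuropathy in mice and people, and loss of Schwann cell Lamc1 or Itgb1 in mice arrests axonal sorting. The same chains occur in the basal laminae of blood vessels, perineurium, fat and muscle, so that in a whole nerve a lower value can mean fewer cells of a type or less RNA per cell, which cannot be told apart.

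The regions before the RefSeq start of paired chains are shown because, within a position of the trimer, their base composition differed. Lama4, Lamc1 and Lamc3 had no entry and are not shown. Sequences are from RefSeq (build GRCm38.p6), read on the strand of the gene, 5′ to 3′, and are cut where an exon annotated by GENCODE begins. Capitals mark GGGCGG or its reverse complement CCGCCC, a GC box. The first is Lamb1 (chr12:31265043-31265233, plus strand), followed by Lamb2 (chr9:108479612-108479735, plus strand).
Lamb1: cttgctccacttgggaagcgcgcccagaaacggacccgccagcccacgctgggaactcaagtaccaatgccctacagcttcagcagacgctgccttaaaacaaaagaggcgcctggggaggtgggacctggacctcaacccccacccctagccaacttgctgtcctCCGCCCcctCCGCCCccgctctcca
Lamb2: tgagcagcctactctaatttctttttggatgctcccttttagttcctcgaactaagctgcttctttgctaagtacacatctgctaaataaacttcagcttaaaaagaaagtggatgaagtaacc
The alpha pair is Lama5 (chr2:180225860-180226109, minus strand) and Lama2 (chr10:27616943-27617192, minus strand). The RefSeq start used for Lama2 lies inside the gene as GENCODE annotates it, so the stretch shown for it is intragenic in that annotation and overlaps none of its exons.
Lama5: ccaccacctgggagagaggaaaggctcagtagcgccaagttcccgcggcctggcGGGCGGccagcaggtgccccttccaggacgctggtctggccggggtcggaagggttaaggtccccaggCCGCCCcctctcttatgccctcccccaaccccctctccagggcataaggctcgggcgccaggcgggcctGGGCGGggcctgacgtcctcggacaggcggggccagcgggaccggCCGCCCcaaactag
Lama2: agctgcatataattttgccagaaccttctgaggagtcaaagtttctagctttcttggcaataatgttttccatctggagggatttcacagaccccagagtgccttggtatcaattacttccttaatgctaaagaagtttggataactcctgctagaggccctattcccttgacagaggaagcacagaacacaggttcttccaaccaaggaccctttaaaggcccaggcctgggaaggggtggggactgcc
Over the whole window of 250 bases before the RefSeq start, Lamb1 had 14 CpG dinucleotides and 2 GC boxes, and Lamb2 had 3 CpG and 0 GC boxes. Lama5 had 19 CpG and 4 GC boxes, whereas Lama2 had 0 CpG and 0 GC boxes. Itgb1, the only integrin with an entry, had 21 CpG and 1 GC box. The median over 32851 mouse windows was 6 CpG, and 32.7% of them held a GC box on either strand. The motifs ACAAAG (found in 16.5% of windows) and GTGGGCG (7.0%) were searched on both strands as well. ACAAAG occurred once, in the Itgb1 window, and GTGGGCG in none of the 5. These matches describe the letters only.

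The 10 genes kept nearly the same order of level from library to library. Divided by the length of all annotated exons, the level over 32 libraries was highest for Itgb1, the common integrin beta subunit, at 140 ± 12.3 CPM per kb (SD), followed by Itgb4 at 84.8 ± 22.7, Lamb2 at 74.0 ± 11.9, Lamc1 at 67.3 ± 10.5 and Itga6 at 57.6 ± 14.2. Lamb1 at 36.0 ± 7.68, Lama4 at 26.3 ± 4.03, Lama2 at 17.0 ± 3.63, Lama5 at 7.21 ± 1.74 and Lamc3 at 1.35 ± 0.70 CPM per kb came after them. The step from Itga6 to Lamb1 held in 32 of 32 libraries, as did those from Lama4 to Lama2, from Lama2 to Lama5 and from Lama5 to Lamc3, and the steps from Itgb1 to Itgb4 and from Lamb1 to Lama4 in 31. Neighbours in the middle were less distinct: Itgb4 was above Lamb2 in 21 libraries, Lamb2 above Lamc1 in 25 and Lamc1 above Itga6 in 22. The length used matters for Itga6. Per kb of its longest coding transcript it stood at 121 ± 29.8, second after Itgb1 at 150 ± 13.1, and Lamb1 and Lama4 rose to 61.7 ± 13.2 and 52.5 ± 8.04, while Lama5 remained at 7.21.

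Among the alpha chains, Lama4 made up the largest share and Lama2, the chain of the Schwann cell basal lamina, the next. Lama4 (gene ENSMUSG00000019846, GRCm38 chr10:38965515-39110188), a chain of vessels, fat and immature nerve, had in CPM a low, a median and a high of 271.5, 339 and 390 for WT, of 250, 318 and 394 for Sipa1l2-/-, of 238, 323 and 427 for C3-PMP22 and of 269, 302 and 372 for the double mutants. The 4 ranges overlapped almost entirely. Lama2 (ENSMUSG00000019899, chr10:26980036-27619758) had 202, 277 and 340 CPM in WT, 234, 277 and 412 for Sipa1l2-/-, 202, 288 and 399 for C3-PMP22, and 175, 255 and 308 for the double mutants. The lowest value was in a double mutant and the highest in a Sipa1l2-/- nerve, with all groups overlapping. Exons of an antisense transcript, Gm48084, cover 631 bp of Lama2, and the sources used here do not say whether counting used the strand. Lama5 (ENSMUSG00000015647, chr2:180176373-180225859), a broadly expressed chain of mature basal laminae, had 69.3, 84.2 and 132 CPM in WT, 55.0, 74.9 and 125 for Sipa1l2-/-, 66.0, 81.4 and 94.4 for C3-PMP22, and 45.6, 75.2 and 98.7 for the double mutants. WT nerves reached the highest Lama5 value, and again the ranges overlapped.

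Of the alpha chain transcripts, per length, Lama4 accounted for 52.5% ± 5.00 (SD, n = 7) for WT, 50.3% ± 5.48 (n = 9) for Sipa1l2-/-, 52.2% ± 3.59 (n = 8) for C3-PMP22 and 54.4% ± 4.44 (n = 8) for the double mutants. The Lama2 share was 31.6% ± 3.18, 36.1% ± 5.12, 33.9% ± 3.69 and 31.7% ± 3.51 in the same order, and that of Lama5 was 15.9% ± 2.92, 13.5% ± 2.74, 14.0% ± 2.13 and 13.9% ± 1.76. Every difference between group means was smaller than the larger of their SDs. Over all libraries the Lama5 share was 14.2% ± 2.47 with all exons and 8.14% with the longest coding transcript, so the share of this chain depends on the gene model by over 1.5 times.

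The beta chains were both well expressed, with Lamb2 above Lamb1 per length in every genotype. Lamb2 (ENSMUSG00000052911, chr9:108479736-108490530), the beta chain of the perineurium, of vessels and of the synapse, had in CPM a low, a median and a high of 404, 425 and 673 for WT, 369, 454 and 525.7 for Sipa1l2-/-, 353, 432 and 597 for C3-PMP22 and 299, 439 and 512 for the double mutants. One WT nerve, replicate 5, stood above all others. Lamb1 (ENSMUSG00000002900, chr12:31265234-31329644), the beta chain of the Schwann cell laminins, had 290, 370 and 462 CPM in WT, 237, 322 and 501 for Sipa1l2-/-, 254.3, 386 and 483 for C3-PMP22, and 250, 296 and 488 for the double mutants. The ranges overlapped, but the double mutants fell into a low and a high set, described further on. Lamb1 made up 32.4% ± 5.21 of the beta chain level in WT, 31.3% ± 4.27 for Sipa1l2-/-, 34.2% ± 5.07 for C3-PMP22 and 33.02% ± 6.59 for the double mutants, and 43.4% over all libraries when coding length was used.

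The gamma position was held almost wholly by Lamc1. Lamc1 (ENSMUSG00000026478, chr1:153218922-153332786), the gamma chain of nearly all known laminins, had 452, 600 and 768 CPM in WT, 484, 587 and 699 for Sipa1l2-/-, 422, 544 and 687 for C3-PMP22, and 415, 514 and 571 for the double mutants. The double mutants had the lowest median and the narrowest range, which lay mostly inside that of WT. Lamc3 (ENSMUSG00000026840, chr2:31887291-31946539), the alternative gamma chain, had 4.06, 8.34 and 15.8 CPM in WT, 2.32, 9.15 and 23.4 for Sipa1l2-/-, 3.43, 7.25 and 11.7 for C3-PMP22, and 1.63, 5.88 and 12.03 for the double mutants. It was 1.91% ± 0.51 of the gamma chain level in WT, 2.29% ± 1.28 for Sipa1l2-/-, 1.82% ± 0.56 for C3-PMP22 and 1.64% ± 0.87 for the double mutants. An antisense transcript, Gm13441, shares 382 bp with Lamc3 exons.

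The summed alpha level per length was 0.712 ± 0.043 of the summed gamma level in WT, 0.716 ± 0.057 for Sipa1l2-/-, 0.766 ± 0.058 for C3-PMP22 and 0.763 ± 0.046 for the double mutants. The beta level was 1.55 ± 0.17, 1.53 ± 0.15, 1.69 ± 0.18 and 1.69 ± 0.09 of it. Both transgenic genotypes had the higher means, by about the spread between replicates, and these sums were not tested.

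**Figure D1:**
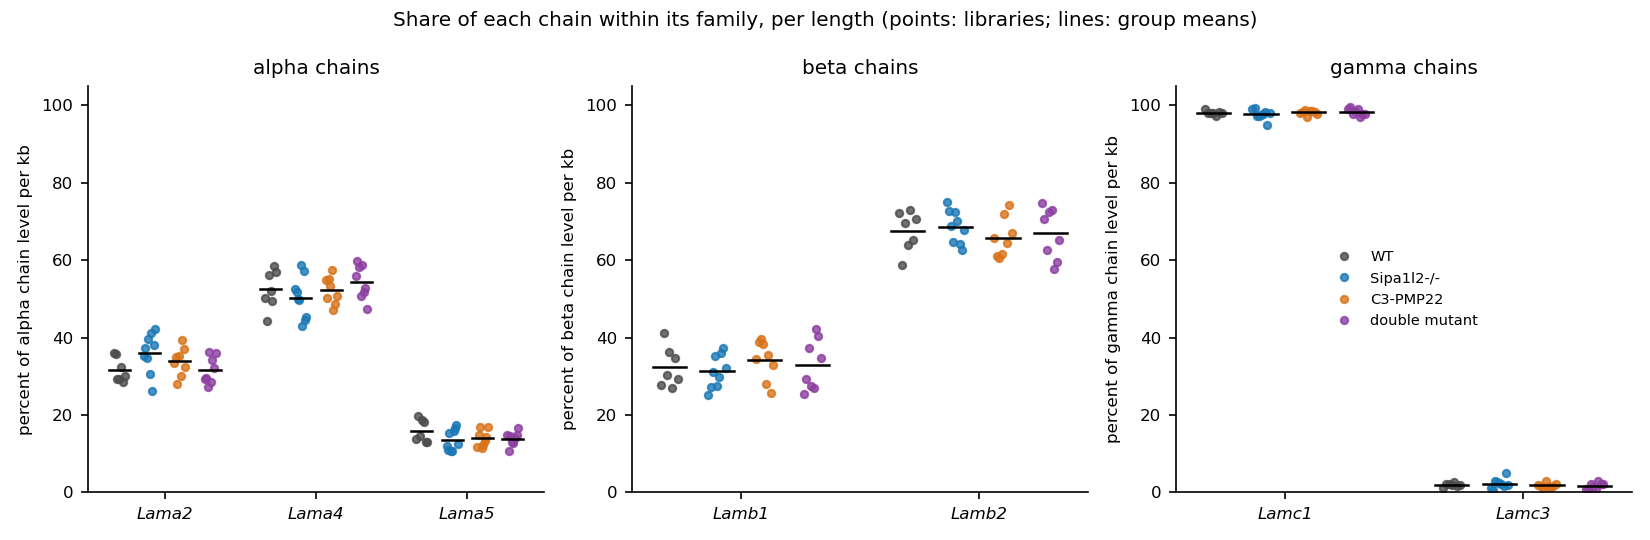
Share of each chain within its family (percent of the summed CPM per kb of annotated exon), by library, for the alpha, beta and gamma chains. Points are libraries coloured by genotype and black lines are group means. Lama4 lies near 52%, Lamb2 near 67% and Lamc1 near 98% in all 4 genotypes.

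Of the integrins, Itgb1 varied least and Itgb4 most. Itgb1 (ENSMUSG00000025809, chr8:128685654-128733200) had in CPM a low, a median and a high of 503, 560 and 622 for WT, 516, 556 and 648 for Sipa1l2-/-, 481, 589 and 646 for C3-PMP22, and 481, 548 and 652 for the double mutants. The highest library was only 1.36 times the lowest, the smallest ratio of the 10 genes. Itga6 (ENSMUSG00000027111, chr2:71745616-71858416), the alpha subunit of both laminin receptors, had 420, 465 and 669 CPM in WT, 361, 492.9 and 707 for Sipa1l2-/-, 441, 527 and 746 for C3-PMP22, and 266, 441 and 770 for the double mutants. The double mutants held both the lowest and the highest value. Itgb4 (ENSMUSG00000020758, chr11:115974709-116008412), the beta subunit of mature myelinating Schwann cells and perineurial cells, had 461, 548 and 938 CPM in WT, 503, 562 and 996 for Sipa1l2-/-, 386, 622 and 771 for C3-PMP22, and 260, 565 and 734 for the double mutants. All groups overlapped. The lincRNA B230344G16Rik lies over 537 bp of Itgb4 exons on the other strand. Over all libraries the coefficient of variation ran from 8.76% for Itgb1 to 26.8% for Itgb4 and 52.1% for Lamc3.

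**Figure D2:**
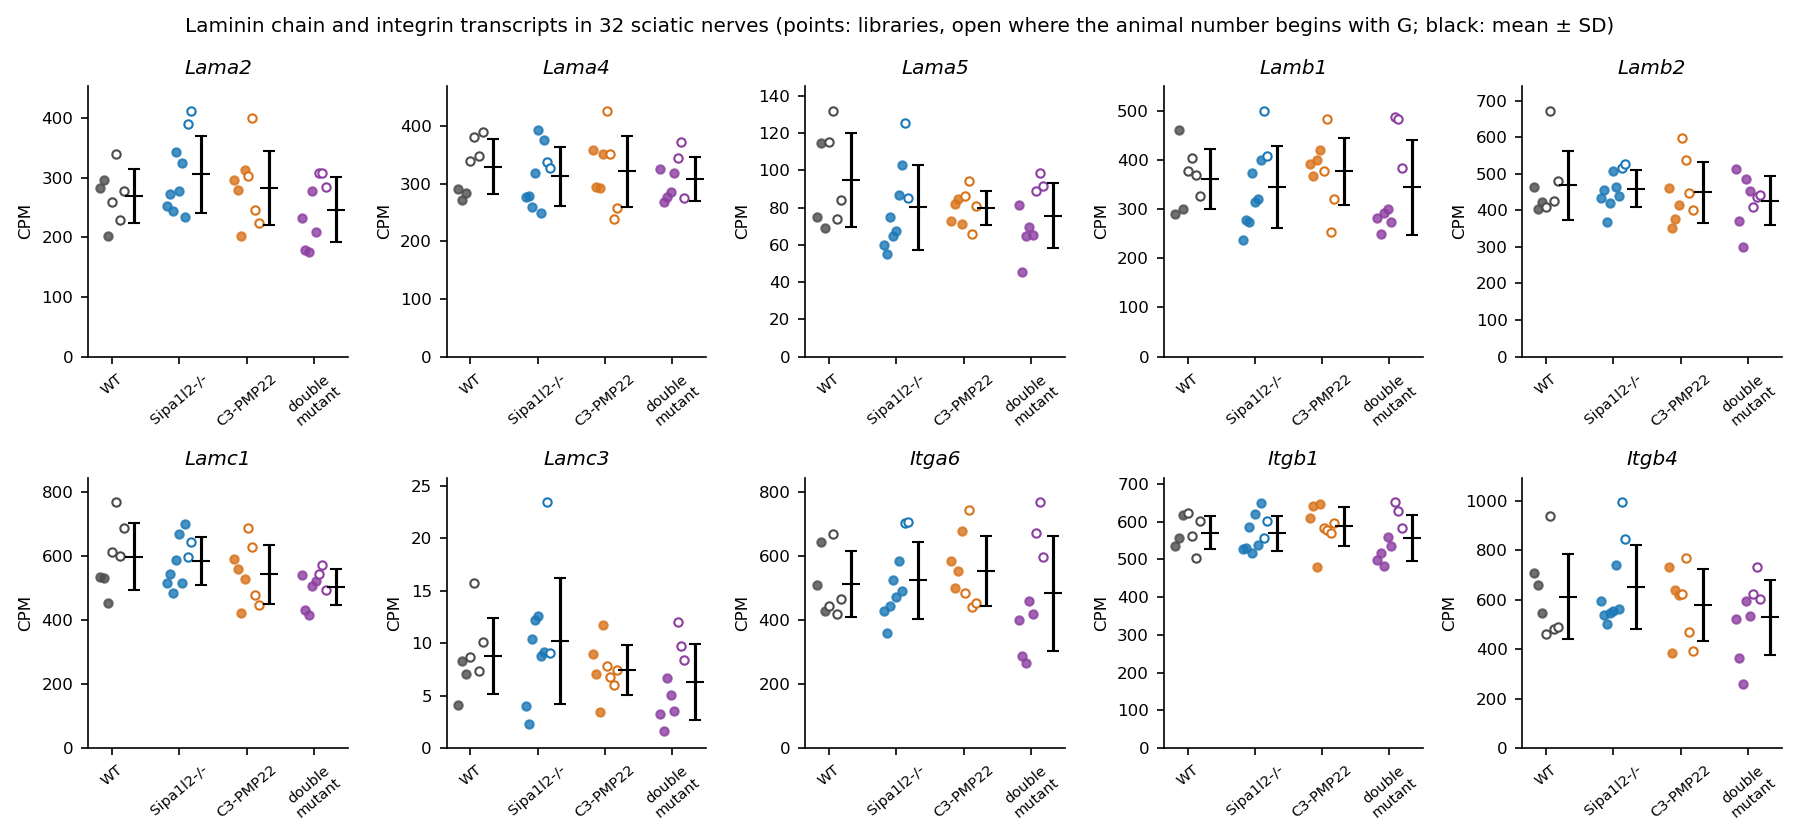
Level of each gene (CPM, linear axis from 0) in every library by genotype. Points are libraries, open where the animal number begins with G, and black marks are the mean ± SD. The 4 genotypes overlap for all 10 genes. Among the double mutants the open points lie above the filled ones for Lamb1, Itga6, Lamc3, Itgb1, Lama5, Lama2 and Itgb4.

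None of the 10 genes differed between genotypes at an adjusted p under 0.05 by edgeR's quasi-likelihood test with a term for labelled sex, adjusted over all 15403 tested genes by the Benjamini-Hochberg method. Between C3-PMP22 and WT, 0 of 10 were called where 0.688% of all tested genes were, and between the double mutants and WT 0 of 10 where 1.38% were. Between Sipa1l2-/- and WT no tested gene was called (0%), with 803 at an unadjusted p under 0.05 and 0 called by DESeq2. The double mutants against Sipa1l2-/- gave 0 of 10 against 0.721% of all genes. The double mutants against C3-PMP22 gave 0 of 10 against 0% (1243 at an unadjusted p under 0.05, 11 called by DESeq2), and the interaction of transgene and Sipa1l2 genotype 0 of 10 against 0% (987 at an unadjusted p under 0.05, 3 called by DESeq2). With both transgenic genotypes set against both others, 0 of 10 were called and 3.32% of all genes. At an unadjusted p under 0.05 edgeR had 0 of the 10 genes in C3-PMP22 against WT (18.1% of all tested genes), 0 in Sipa1l2-/- against WT (5.21%), 1 in the double mutants against WT (14.7%), 0 in the double mutants against C3-PMP22 (8.07%), 2 in the double mutants against Sipa1l2-/- (8.69%), 2 in the pooled comparison (17.2%) and 0 in the interaction (6.41%). None of the 10 was called by DESeq2 or by any other alternative.

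The intervals show what sizes of change the data leave possible. Between C3-PMP22 and WT the estimates ran from a log2 fold change of -0.31 for Lamc3 to 0.10 for Itga6, and all 95% intervals together spanned folds of 0.539 to 1.39. Itgb1 was bounded most tightly, with a log2 fold change of 0.03 and an interval of -0.11 to 0.17. Lama2, at 0.06, had an interval of -0.25 to 0.37, and Lama4, at -0.06, one of -0.27 to 0.16. Between Sipa1l2-/- and WT, Lama2 had the highest estimate, 0.17 (-0.14 to 0.47), and Lama5 the lowest, -0.28 (-0.60 to 0.05). Against WT the double mutants had estimates below 0 for all 10 genes, with a median log2 fold change of -0.13 beside 0.01 for all tested genes. The genes with the lowest estimates there were Lamc3 at -0.53 (-1.11 to 0.06), Lama5 at -0.33 (-0.67 to 0.00) and Lamc1 at -0.24 (-0.46 to -0.02). Lamc1 had an unadjusted p of 0.031 in this edgeR comparison and an adjusted p of 0.275, in a comparison where 14.7% of all tested genes had an unadjusted p under 0.05. In the pooled transgenic comparison Lamc1 (-0.17, adjusted p = 0.219) and Lamc3 (-0.43, adjusted p = 0.252) were the nearest to a call by edgeR. Against Sipa1l2-/-, the double mutants had Lama2 at -0.30 (adjusted p = 0.549) and Lamc3 at -0.56 (adjusted p = 0.574).

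**Figure D3:**
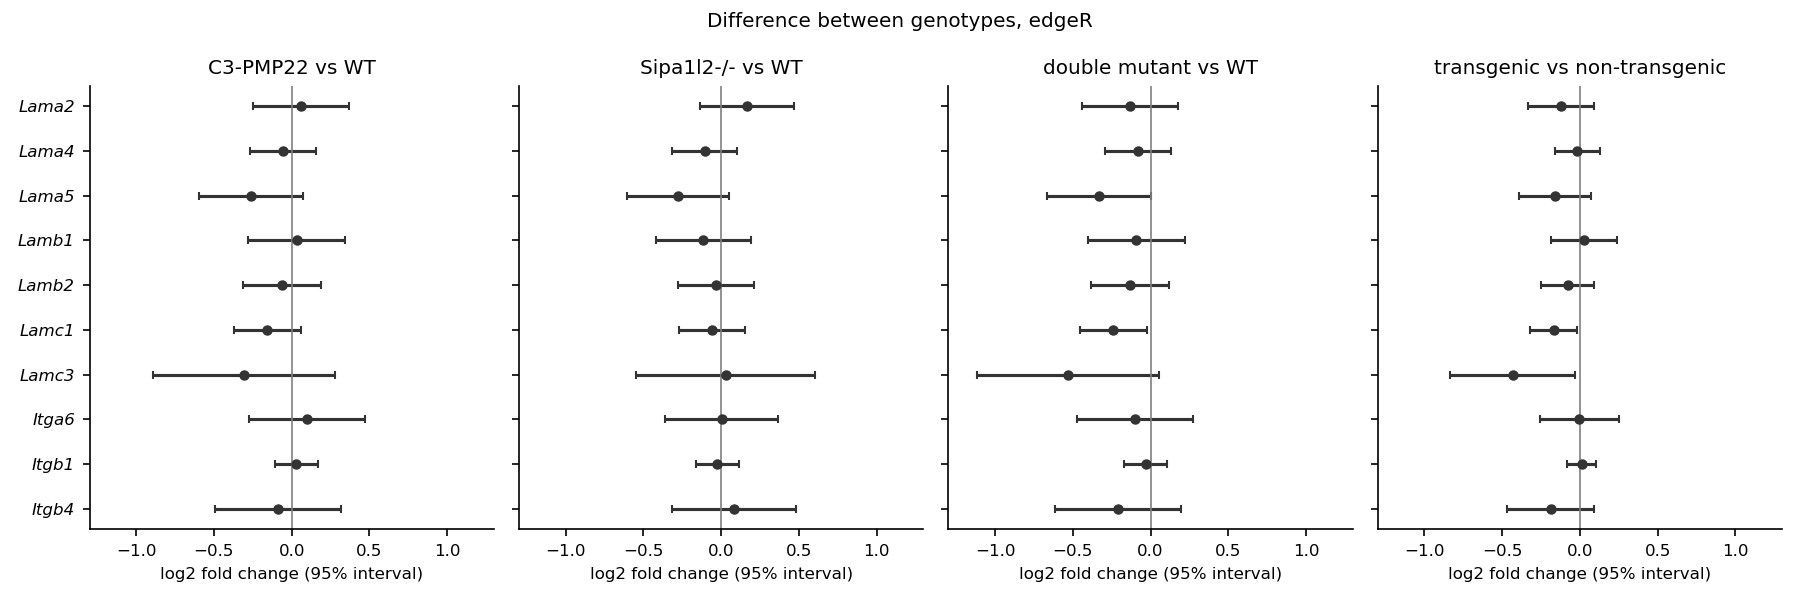
Log2 fold change of each gene with its 95% interval from edgeR in 4 comparisons. Points are estimates and bars are intervals. The bars for Lamc3 are the longest and those for Itgb1 the shortest.

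Isoform usage was also compared through ratios of CPM within a library, which do not depend on scaling. These ratios were not divided by gene length, so only their differences between genotypes are free of it. In log2 CPM, Lama4 exceeded Lama2 by 0.30 ± 0.27 (SD, n = 7) for WT, 0.05 ± 0.36 (n = 9) for Sipa1l2-/-, 0.19 ± 0.25 (n = 8) for C3-PMP22 and 0.35 ± 0.27 (n = 8) for the double mutants. Lama5 minus Lama2 was -1.53 ± 0.25, -1.95 ± 0.39, -1.80 ± 0.31 and -1.71 ± 0.20, and Lamb1 minus Lamb2 was -0.37 ± 0.34, -0.44 ± 0.29, -0.25 ± 0.34 and -0.33 ± 0.43, in the same order. The Lama5 to Lama2 ratio in Sipa1l2-/- nerves was 0.42 lower than in WT on the log2 scale, with an unadjusted p of 0.03 in the exact two-sided permutation test. It did not pass adjustment over 30 tests of 5 ratios in 6 comparisons, where the smallest adjusted p was 0.569. Lamc3 to Lamc1 and Itgb4 to Itgb1 did not pass either.

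The double mutants were the most uneven genotype for several of these genes. Itga6 was 367 ± 85.1 CPM (n = 5) for the double mutants without the letter G and 680 ± 86.5 (n = 3) in those with it, with values of 266 to 462 and 597 to 770. Lamb1 was 280 ± 19.2 and 452 ± 59.5 CPM, with values of 250 to 300 and 383 to 488. Neither gene overlapped between these sets, and neither did Lamc3 (1.63 to 6.71 and 8.37 to 12.03 CPM), Itgb1 (481 to 559 and 582 to 652), Lama5 (45.6 to 81.1 and 88.7 to 98.7), Lama2 (175 to 278 and 284 to 308) or Itgb4 (260 to 596 and 603 to 734). Lama4, Lamb2 and Lamc1 overlapped. Of all 15403 tested genes, 28.3% had ranges that did not overlap between these sets, 16.5% with the higher values in the set with the letter, as for these 7. The sets were formed after values were seen, and the counts describe these libraries only. The myelinating Schwann marker score was -0.98 ± 0.50 in the first set and 0.67 ± 0.09 in the second, the muscle score 2.47 ± 0.83 and -1.32 ± 5.78, and the macrophage score 0.51 ± 0.20 and -0.49 ± 0.32. Their part in the result was not tested.

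Set against WT of the same number series, Itga6 differed by -0.54 on the log2 scale without the letter and by 0.46 with it, and Lamb1 by -0.30 and 0.28. Against C3-PMP22 of the same series the differences were -0.68 and 0.38 for Itga6 and -0.50 and 0.36 for Lamb1. The estimates for the double mutants over both series thus combine differences of opposite sign for these genes. Nerves that all lay below the mean of the group they were set against in one series and above it in the other were found for 4 of the 10 genes against WT (20.2% of all tested genes), 4 against C3-PMP22 (15%) and 1 against Sipa1l2-/- (4.72%). Against Sipa1l2-/-, with 7 nerves without the letter and only 2 with it, the differences were -0.38 and -0.06 for Itga6. For Lamb1 they were -0.15 and -0.01. The 3 chains with the lowest estimates in the double mutants lay below WT in both series. Lamc1 did so by -0.07 and -0.31, Lama5 by -0.39 and -0.09 and Lamc3 by -0.74 and -0.01. Lamb2 lay below WT in both as well, by -0.04 and -0.19. The 3 chains were picked by estimates from these same libraries, and the WT sets held 3 and 4 nerves.

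Across the 32 libraries the genes were related to the marker scores to different degrees, and several passed with more than 1 score. Itga6 rose and fell with the myelinating Schwann score, with a Pearson r of 0.91 and a Spearman rho of 0.89 (adjusted permutation p = 0.00016 and 0.0002 over 80 relations), and with r of 0.86 without the 2 most extreme libraries. Within the libraries without and with the letter G r was 0.91 and 0.90. Lamb1 did so as well, with r of 0.79, rho of 0.83 and the same adjusted permutation p-values, 0.80 without the 2 extremes, and 0.75 and 0.77 within the series. Lama2 had r of 0.69 with this score, rho of 0.67, 0.55 without the extremes, and 0.64 and 0.67 within the series (adjusted permutation p = 0.00016 for r and 0.000343 for rho). Lamb2, by contrast, had r of only 0.22 with the myelin score and 0.69 with the perineurial score, where rho was 0.72 (adjusted permutation p = 0.000229 for r and 0.000267 for rho), r without the 2 extremes 0.64 and r within the series 0.60 and 0.71. Itgb4 followed both, with r of 0.69 and rho of 0.69 for myelin (adjusted permutation p = 0.0003 and 0.000267; 0.52 without the extremes, 0.69 and 0.66 within the series) and r of 0.71 and rho of 0.69 for perineurium (adjusted permutation p = 0.000229 and 0.0005; 0.66 without the extremes, 0.59 and 0.82 within the series). Lama2 and Itga6 also passed with the perineurial score, at r of 0.56 and 0.50 (adjusted permutation p = 0.00453 and 0.0131), though r was 0.31 and 0.24 without the letter G and 0.78 and 0.73 with it. Lama5 had r of 0.66 and rho of 0.65 with the myelin score (adjusted permutation p = 0.000356 and 0.0008; 0.57 without the extremes, 0.68 and 0.41 within the series), and Lamc3 r of 0.58 and rho of 0.51 (adjusted permutation p = 0.00314 and 0.0152). The 3 genes Lama5, Itga6 and Lamb1 were lower where the macrophage score was higher, with r of -0.58 for the first (adjusted permutation p = 0.00313), -0.56 for the second (0.00383) and -0.48 for the last (0.0231). Within the series these were -0.67 and -0.03 for Lama5, -0.43 and -0.53 for Itga6 and -0.37 and -0.28 for Lamb1.

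Lama4 and Lamc1 had no such relation to myelin (r of 0.13 and 0.25) and moved against skeletal muscle. Lama4 had r of -0.81 and rho of -0.84 with the muscle score (adjusted permutation p = 0.00016 and 0.0002; -0.85 without the extremes, -0.77 and -0.80 within the series), and Lamc1 r of -0.77 and rho of -0.82 (the same adjusted permutation p-values; -0.85, and -0.76 and -0.72 within the series). With the muscle score 9 of the 10 genes passed by r, all negative, and only Itgb1 did not (r of -0.26, adjusted permutation p = 0.301). Lamb2, for instance, had r of -0.61 (adjusted permutation p = 0.00152; -0.41 and -0.64 within the series). For the other laminin chains and for Itga6 and Itgb4 the muscle relation was weaker without the letter G than with it. It was -0.21 and -0.66 for Lama2, and for Itgb1 r was -0.34 and 0.05. Lama4 was also higher where the adipocyte score was higher, with r of 0.59 and rho of 0.54 (adjusted permutation p = 0.00284 and 0.0102; 0.51 without the extremes, 0.49 and 0.75 within the series), and so was Lamc1, with r of 0.48 and rho of 0.43 (adjusted permutation p = 0.0203 and 0.0455; 0.37 without the extremes, 0.33 and 0.74 within the series). With the endothelial, pericyte and fibroblast scores the adjusted permutation p passed 0.05 in a single relation, Lamb2 with fibroblasts, by rho (0.45, adjusted p = 0.0372) and not by r (0.38, adjusted p = 0.103). The scores and the genes are all shares of the same library totals.

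**Figure D4:**
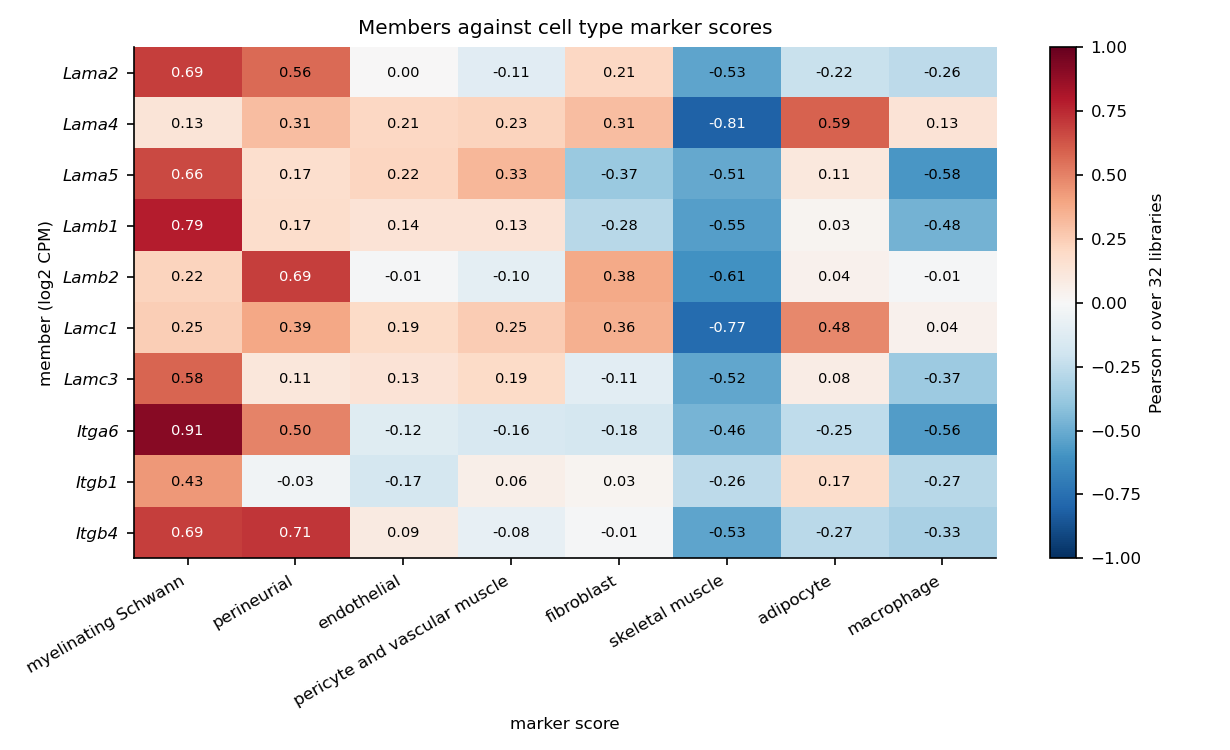
Pearson r over 32 libraries between the log2 CPM of each gene (rows) and the score of each cell type (columns). Colours and numbers give r. Itga6 and Lamb1 are strongest with myelinating Schwann cells, Lamb2 and Itgb4 with perineurium, and Lama4 and Lamc1 are most negative with muscle.

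Among the genes themselves, Itga6 correlated with Itgb4 (r = 0.83), Lama2 (0.82) and Lamb1 (0.81), and Lama4 with Lamc1 (0.81), over the 32 libraries, as a description without a test. The beta chains Lamb1 and Lamb2 had r of 0.22 with each other. Over 13337 other genes, those most like Lama2 were Abca8a (r = 0.87), Sept8 (0.85), Mbtps1 (0.84), Add1 (0.83) and Zfp287 (0.83). Those most like Lama4 were Gak (0.86), Atp2b4 (0.83), Kirrel (0.83), Glb1l (0.83) and C4b (0.82). Lama5 was closest to Agrn (0.85), which encodes the basal lamina proteoglycan agrin, then Mical3 (0.84), Kmt2d (0.84), Spen (0.83) and Ddr1 (0.83). For Itgb4 the nearest were Ptpn13 (0.93), Ctnna1 (0.92), Add1 (0.91), Dock9 (0.91) and Bace2 (0.88). For Lamc3 they were Apc (0.78), Atxn1l (0.78), Appbp2 (0.77), Tanc2 (0.77) and Bcl2l2 (0.77).

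Several partners of these laminins were called, described in turn. Among other chains of the laminin family, Lama3 and Lamb3 had means between 8.92 and 20.2 CPM and no call. Lama1 was at or below 1.19 CPM in 31 libraries and at 5.33 CPM (73 counts) in double mutant 3.

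Of 15 basal lamina partners, 0 rose and 3 fell in the double mutants against WT, and 0 rose and 3 fell in transgenic against other nerves, where 0.863% and 1.75% of all tested genes were called lower. Their median log2 fold change was -0.36 and -0.17, beside 0.01 and 0.02 for all genes. Against WT the median was also -0.21 in C3-PMP22 and -0.29 in Sipa1l2-/- (0.04 and 0.02 for all genes). In Sipa1l2-/- 11 of the 15 lay below 0 and 0 were called. For the double mutants against C3-PMP22 and against Sipa1l2-/- the median was -0.03 and -0.11 (-0.05 and -0.01 for all genes). Col15a1, a collagen that links the basal lamina to fibrils, was 648 ± 244 CPM in WT, 496 ± 126 for Sipa1l2-/-, 372 ± 102 for C3-PMP22 and 342 ± 41.3 for the double mutants. It fell by 0.91 ± 0.20 (log2, SE) against WT in the double mutants (edgeR adjusted p = 0.0168) and by 0.67 ± 0.14 in the pooled comparison (edgeR adjusted p = 0.00469). The pooled call held in all 11 alternatives and without any 1 library, and the former ended with total counts alone or without WT 5 or WT 6. In C3-PMP22 against WT the estimate for Col15a1 was -0.82 ± 0.20 with an edgeR adjusted p of 0.0503. The basement membrane collagens Col4a2 (-0.82 ± 0.21, edgeR adjusted p = 0.0408 for the double mutants against WT; -0.52 ± 0.14, 0.0371 pooled) and Col4a1 (-0.49 ± 0.14, 0.0376 pooled) and the collagen chaperone Sparc (-0.53 ± 0.14, 0.0458 for the double mutants against WT) were called less firmly.

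The Col4a1, Col4a2 and Sparc calls each ended under several alternatives. For Col4a2 the pooled call was lost in 6 of 11 and the other in 5 of 12, for Col4a1 in 6 of 11 and for Sparc in 5 of 12. Among them the adipocyte score as a covariate ended both Col4a2 calls and that for Sparc. The muscle score as a covariate ended the pooled Col4a1 and Col4a2 calls, as did leaving out C3-PMP22 7 and 8. A term for the animal-number series ended the Col4a2 call in the double mutants against WT. The adipocyte score was 0.69 ± 0.80 for WT and between -0.24 and -0.13 on average in the other genotypes, and the endothelial score was -0.26 ± 0.28 for C3-PMP22, 0.11 ± 0.21 for WT, 0.17 ± 0.21 for Sipa1l2-/- and -0.02 ± 0.15 for the double mutants. The score of pericytes and vascular muscle was -0.34 ± 0.28 for C3-PMP22, 0.24 ± 0.52 for WT, 0.15 ± 0.34 for Sipa1l2-/- and -0.04 ± 0.23 for the double mutants. The part of these cells in the collagen values was not tested beyond those fits. Single libraries also ended the calls. For Col4a2 in the double mutants these were WT 2, 4, 5, 6 or 7 and double mutant 1, 2, 3, 4, 6, 7 or 8. For Col4a2 pooled they were WT 4, 5, 6 or 7, Sipa1l2-/- 7 or 9, C3-PMP22 1, 4, 7 or 8 and double mutant 2, 6 or 8, and for Col4a1 the same with double mutant 7. For Sparc they were WT 2, 4, 5, 6 or 7, Sipa1l2-/- 1, 2, 4, 5 or 6, C3-PMP22 4 and double mutant 1, 2, 3, 4, 5 or 8.

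Of 24 other laminin receptors and dystroglycan complex genes, 1 rose and 3 fell in the pooled comparison. Of all tested genes 1.58% were called higher there and 1.75% lower. The list median log2 fold change was -0.08, beside 0.02 for all genes. Itgb8, an integrin beta subunit of glia that activates TGF-beta, was 138 ± 44.4 CPM in WT, 147 ± 51.1 for Sipa1l2-/-, 273.4 ± 81.5 for C3-PMP22 and 236 ± 146 for the double mutants, with overlapping groups. Its pooled log2 fold change was 0.80 ± 0.19 (SE, edgeR adjusted p = 0.013), and the call held in all 11 alternatives and without any 1 library. The double mutants alone were not called against WT for Itgb8 (0.66 ± 0.28, edgeR adjusted p = 0.244). Their median was 150 CPM with a range of 108 to 461, beside a median of 151 for Sipa1l2-/-. The sarcoglycans Sgce (-0.23 ± 0.06, edgeR adjusted p = 0.0192) and Sgcd (-0.29 ± 0.08, 0.03) and the dystrobrevin Dtnb (-0.31 ± 0.09, 0.039), which belong to the complex assembled with dystroglycan, fell. In the double mutants against WT, 0 of the 24 rose and 1 fell, and against Sipa1l2-/- 0 rose and 1 fell. In the former comparison 0.863% of all tested genes were called lower. In the double mutants against WT, Sgcd fell by 0.54 ± 0.11 (edgeR adjusted p = 0.0081), from 69.1 ± 14.1 to 47.1 ± 9.88 CPM, and this call ended without the term for sex. Against Sipa1l2-/- Dtnb in the double mutants fell by 0.49 ± 0.12 (edgeR adjusted p = 0.0451; 0.351% of all tested genes were called lower). The Sgce call ended with total counts alone. The pooled Sgcd call ended with the muscle score as a covariate, without the term for sex, and without WT 4, 5 or 7, Sipa1l2-/- 9 or double mutant 8. The Dtnb calls rested on 4.78 to 6.66 CPM and were the least stable: that against Sipa1l2-/- held in 4 of 12 alternatives and the pooled one in 8 of 11. The former ended without WT 1, 5, 6 or 7, Sipa1l2-/- 2, 3, 4, 6, 8 or 9, C3-PMP22 3, 4, 5 or 7, or double mutant 1, 2, 3, 4, 5, 7 or 8. The latter ended without WT 1, 2, 5, 6 or 7, Sipa1l2-/- 3, 4, 8 or 9, C3-PMP22 2, 3 or 4, or double mutant 1, 2, 4 or 8. Dag1, which encodes dystroglycan itself, was not among the calls.

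Of 16 genes of integrin adhesion and signalling, 0 rose and 1 fell in the double mutants against WT, and 0 rose and 2 fell in the pooled comparison. Of all tested genes 0.863% and 1.75% were called lower in these comparisons. The list median log2 fold change was -0.09 and -0.05, beside 0.01 and 0.02 for all genes. Tln1, the talin that links integrin beta tails to actin, had 446 ± 53.4 CPM in WT, 421 ± 54.8 for Sipa1l2-/-, 376 ± 38.7 for C3-PMP22 and 347 ± 36.6 for the double mutants. It fell by 0.36 ± 0.08 for the double mutants (log2, SE, edgeR adjusted p = 0.0236) and by 0.26 ± 0.06 pooled (edgeR adjusted p = 0.0084). The pooled call ended only with total counts alone, and the other with total counts alone, with no filter, with the fit limited to WT and double mutants, and without WT 2, 4 or 5 or double mutant 3 or 8. Cd151, a tetraspanin that binds Itga6 and other laminin-binding integrins, was 236 ± 23.6 CPM in WT, 225 ± 31.4 for Sipa1l2-/-, 204 ± 9.92 for C3-PMP22 and 194 ± 20.8 for the double mutants, with a pooled log2 fold change of -0.21 ± 0.05 (edgeR adjusted p = 0.0216). The calls in C3-PMP22 against WT, Sipa1l2-/- against WT, double mutants against C3-PMP22 and the interaction were 0 in each of these 3 lists. Nearest to a call in C3-PMP22 against WT after Col15a1 were Col4a2 (-0.78 ± 0.21, edgeR adjusted p = 0.0619), Col4a1 (-0.74 ± 0.20, 0.063) and Itgb8 (0.94 ± 0.27, 0.0949).

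**Figure D5:**
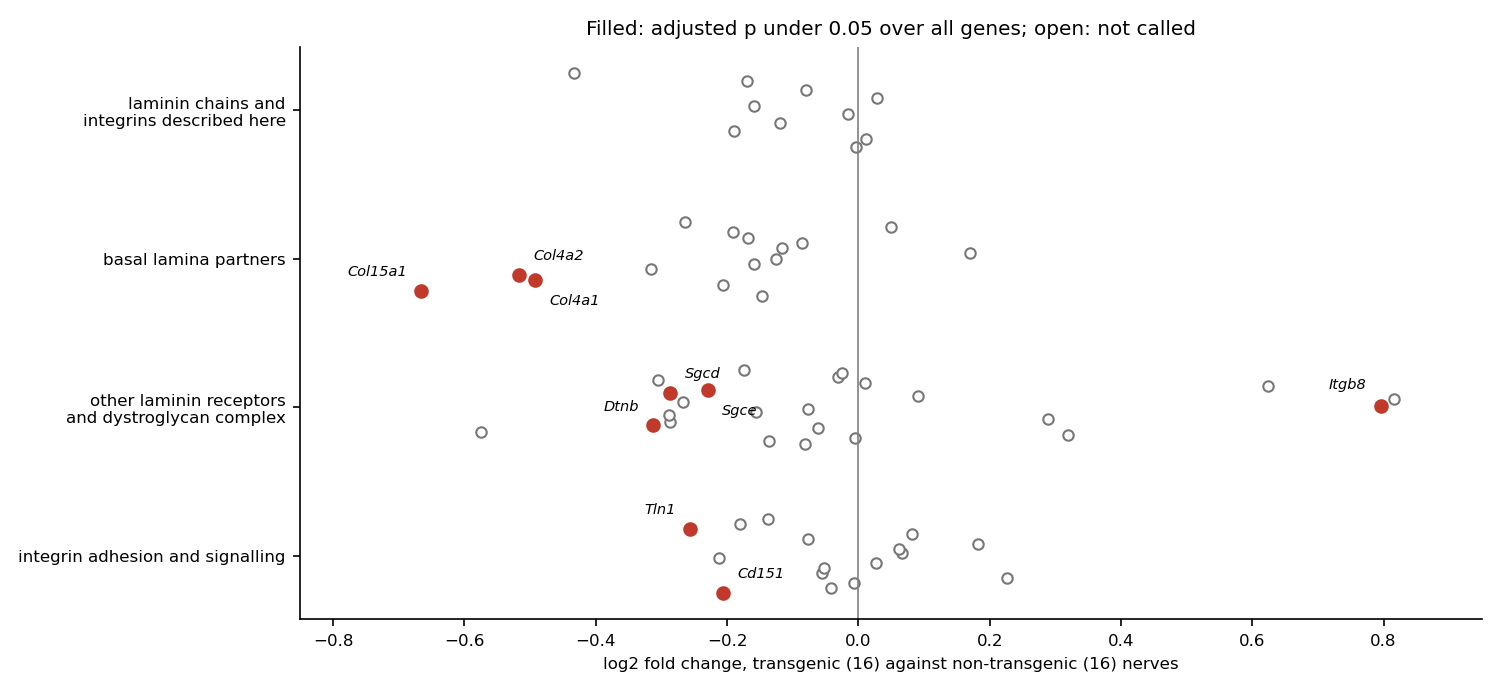
Log2 fold change between transgenic (n = 16) and other (n = 16) nerves for the 10 genes described here and for the basal lamina partners, the other receptors with the dystroglycan complex and the integrin signalling genes, 1 point a gene, spread vertically for legibility. Filled points passed an adjusted p of 0.05 over all genes and are named. The 10 genes lie between -0.43 and 0.03 with none filled.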

How the data were processed

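Nerve RNA was extracted by TRIzol, cleaned on columns with DNase, and made into polyA libraries (KAPA mRNA HyperPrep) for paired-end sequencing, per the labels' protocols. The submitters' processing notes name Trim Galore, FastQC, RSEM and GRCm38 (mm10). Versions, settings and strand handling were not given in the sources used here. Values as deposited are the authors' expected counts per gene, stored as whole numbers and not scaled between libraries. Columns were matched to samples by the column letter in each description.

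Counts were tested with edgeR 4.0.16 (R 4.3.3; limma 3.58.1) by its quasi-likelihood method on all 32 libraries with genotype and labelled sex, after filterByExpr (minimum count 10, minimum total count 15; at least 99.66% of the counts of each library kept) and TMM scaling. The common biological coefficient of variation was 0.3338, and 95% intervals of log2 fold changes for C3-PMP22 against WT had a median half-width of 0.32. Calls used a Benjamini-Hochberg adjusted p under 0.05. Log2 CPM used a prior count of 2. Alternatives included DESeq2 1.42.0, total counts, DESeq2 size factors, other filters, a replicate block, covariates and each library left out. Ratios used permutation of samples. Marker scores are means of centred log2 CPM.

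Named genes were all 10 members, the called genes of each list (up to 3 by smallest adjusted p per comparison and direction, otherwise the gene with the smallest p), and, for each of Lama2, Lama4, Lama5, Lamc3 and Itgb4, the 5 genes most correlated with it (mean 1 CPM or more, model names left out). The Lama1 value, the Dag1 remark, the genes named as nearest to a call in C3-PMP22 and the division of the double mutants were chosen after values were seen. The members and lists were chosen with earlier results of these data known. Libraries were taken as separate animals from their numbers. The closest 2 libraries differed by a chi-square of 12.48 per degree of freedom, so none was counted as a repeat. The fit was tested on simulated data for C3-PMP22 against WT (15304 genes), where it recovered 98.5% of 4-fold, 71.6% of 2-fold and 11.9% of 1.5-fold changes. Whole numbers were stored throughout, so no rounding was needed. Gene positions are from GENCODE M21. Some results of the lists are not reported here.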

Additional observations from a re-analysis of the deposited data

Results flagged for a closer look

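Among 60 checks for a library standing apart from its genotype, 2 did so, where chance gives about 1 in 20. The log2 CPM of Lamb2 in WT 5 was 9.39, with the nearest WT nerve at 8.91, a gap of 0.655 of the range. The log2 CPM of Itgb1 in C3-PMP22 3 was 8.91, with the nearest at 9.15, a gap of 0.574 of the range.

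In the double mutants, every nerve without the letter G in its animal number lay on one side of the mean of the group it was set against and every nerve with it on the other, for 5 genes. The difference between the series was not tested, and it coincides with sex in this genotype. The same pattern held for 20.2% of all 15403 tested genes against WT, where 4 of the 10 genes had it, for 15% against C3-PMP22, where 4 did, and for 4.72% against Sipa1l2-/-, where 1 did. Against WT the log2 differences without (n = 5) and with the letter (n = 3) were -0.3 and 0.28 for Lamb1, -0.54 and 0.46 for Itga6, -0.14 and 0.12 for Itgb1, and -0.54 and 0.2 for Itgb4. Against C3-PMP22 they were -0.5 and 0.36 for Lamb1, -0.94 and 0.5 for Lamc3, -0.68 and 0.38 for Itga6, and -0.19 and 0.09 for Itgb1. Against Sipa1l2-/-, which had 7 nerves without the letter and only 2 with it, they were -0.12 and 0.1 for Itgb1.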

How the results depend on the processing

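In 306 recomputations of how many of the 10 genes were called (7 comparisons, every alternative and each library left out), the count was 0, and the smallest adjusted p of any member was 0.0796 (Lamc1, transgenic against other nerves, without WT 3). Of 3060 member fold changes, 167 changed sign, all uncalled. The 1170 ratio tests gave no call, and 46 changed sign. Coding length in place of all exons moved 16 chain shares by more than 1 SD. These were Lama4, Lama5, Lamb1 and Lamb2 in every genotype, while Lama2, Lamc1 and Lamc3 moved by less. Of 738 recomputations of called list genes, 162 lost the call and none changed direction. Same-numbered libraries of different genotypes correlated at -0.56 to 0.75 (median 0.09 over 45 pairs, 22 over 0.1), and 8 of 32 libraries correlated best with their own number, so they share only a number. With the replicate block 0 members were called in each comparison, with Lamb1 in C3-PMP22 against WT at a log2 fold change of 0.01. The block ended the pooled calls for Cd151 (edgeR adjusted p = 0.0607), Dtnb, Col4a1 and Col4a2 and that for Dtnb against Sipa1l2-/-. The spread between nerves limits what can be seen: in simulated data of 15304 genes, 1.5-fold changes in C3-PMP22 against WT were called in 11.9% of cases. That figure is not specific to the 10 genes, whose own intervals bound them more closely. In that comparison the highest upper end was a fold of 1.39, so no interval reached a 1.5-fold rise. The lower ends were folds of 0.539 for Lamc3, 0.661 for Lama5 and 0.709 or more for the others.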
